A study of Mus musculus with 36 samples.

Results

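The lungs of ovalbumin-challenged KitWsh mice were compared with those of wild-type (WT) mice given the same challenge. The comparison used 7 of the 36 arrays of the study: the 4 arrays titled as KitWsh with OVA and no engraftment, and 3 of the 4 arrays titled as B6 (C57BL/6) with OVA and no engraftment. The remaining WT array, number 4, was left out of the fit because its Kit value went against its label, and the fit was repeated with it. Whole-lung RNA was measured on Affymetrix mouse expression arrays, 1 array per sample, in age-matched female mice. KitWsh OVA mice carried the W-sh allele on both copies of Kit, in a line backcrossed to C57BL/6J, and WT OVA mice were unmodified C57BL/6. Both were immunised intraperitoneally with 50 µg of ovalbumin (OVA) on days 1, 4 and 7 and, from day 12, took 20 µg of OVA through the nose once a week over 9 weeks. KitWsh PBS mice (3 arrays) and WT PBS mice (4 arrays) had phosphate-buffered saline (PBS) on the same days and serve below as the unchallenged comparison. None of these mice had been engrafted with cells. The labels do not say that each sample was a separate animal, so the tests take in only the variation among the samples, part of which may be technical.

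Kit is the receptor tyrosine kinase for stem cell factor, which the gene Kitl encodes. Mast cells need its signal to develop and survive, and they are tissue-resident granulocytes that release histamine, proteases and cytokines when antigen crosslinks IgE on their surface. The W-sh allele is a rearrangement of the DNA upstream of Kit that silences Kit in the mast cell lineage while leaving the coding sequence intact, so KitWsh mice are used as mast cell-deficient animals. Red cell, pigment cell and gut pacemaker lineages can also use Kit, and the rearrangement reaches neighbouring genes, which limits KitWsh mice as a model of mast cell loss alone. Repeated OVA inhalation after immunisation is a standard model of allergic airway disease, in which the cytokines IL-4 and IL-13 drive mucus, eosinophil recruitment, alternative macrophage activation and airway remodelling.

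Values are log2 intensities, on which 1 unit is a doubling of signal. Their lowest value is 2.19, called the floor here, and values under 5 were treated as having no order. Log2 differences are given ± their standard error, as KitWsh minus WT. Kit read 6.10, 6.51, 5.85 and 6.74 in KitWsh OVA lungs, against 10.61, 10.63 and 10.97 in WT OVA arrays 1 to 3. WT OVA array 4 read 6.90, just above the highest KitWsh array and far under the other WT arrays. Kit averaged 21.7-fold lower in KitWsh OVA lungs than on WT OVA arrays 1 to 3, which is given as a description because Kit decided which WT array was left out. A second Kit probe set averaged 3.02 in KitWsh OVA lungs and 7.48 in WT OVA lungs. Atp10d, a phospholipid-transporting ATPase encoded near Kit, read 8.94, 9.15, 9.08 and 9.21 in KitWsh OVA lungs and 7.51, 7.65 and 7.67 on WT OVA arrays 1 to 3. WT OVA array 4 read 8.95 for Atp10d, inside the KitWsh range. The mean of the Y-linked genes Eif2s3y, Kdm5d and Uty was 7.28 on WT OVA array 4, and between 2.19 and 2.25 on the other 7 challenged arrays of these groups, although all mice are labelled female. Xist, which is transcribed from the inactive X chromosome, read 10.7 on that array and between 12.5 and 13.0 on the other 7. The array labelled as WT OVA array 4 therefore went against its label in these measures, and the counts with it are given after those without it.

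**Figure D1:**
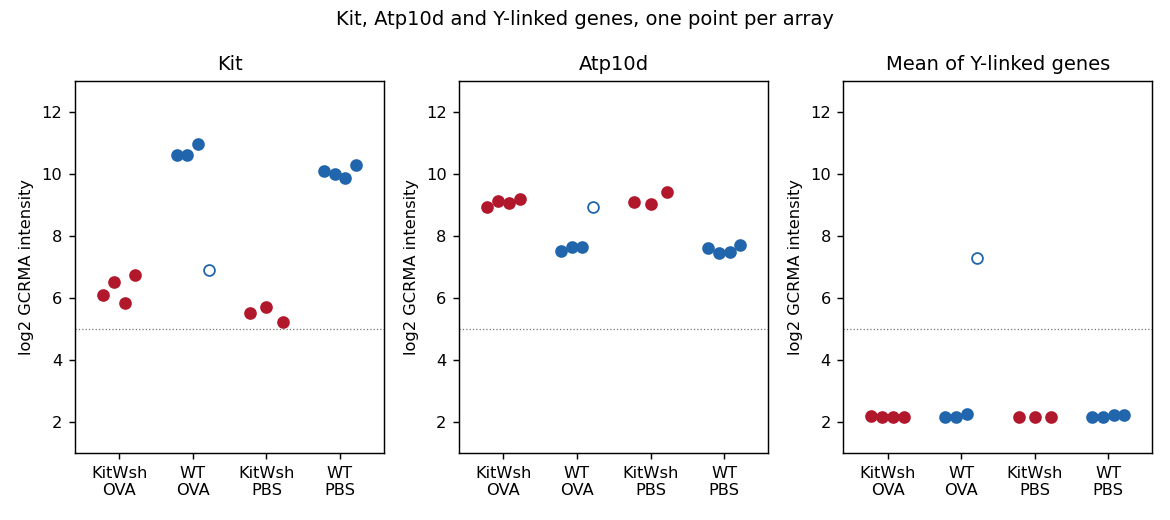
Log2 GCRMA intensity of Kit, of Atp10d and of the mean of Eif2s3y, Kdm5d and Uty in KitWsh OVA, WT OVA, KitWsh PBS and WT PBS lungs, 1 point per array, with WT OVA array 4 as the open circle and the dotted line at 5. KitWsh and WT arrays form separate bands for Kit and Atp10d, and the open circle lies with the KitWsh arrays in both and apart from all others in the Y-linked mean.

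The lung was well represented in both groups. The alveolar type 2 surfactant gene Sftpc read 15.1 to 15.4 in KitWsh OVA lungs and 14.9 to 15.4 on WT OVA arrays 1 to 3, and the club cell gene Scgb1a1 read 15.4 to 15.7 in KitWsh OVA lungs and 15.4 to 15.8 on those WT arrays. The 3′ minus 5′ difference of the beta-actin control probes, which grows as RNA breaks down, was 2.62, 1.70, 1.29 and 1.35 in KitWsh OVA lungs and 1.25, 1.46 and 1.20 on WT OVA arrays 1 to 3. KitWsh OVA array 1 was the highest, and the part of this difference in the results was examined only by adding it as a covariate, which gave 97 calls, of which 64 were among the 111 given below. No batch is named in the labels.

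Apart from Kit, whose own values chose the WT arrays, no gene of the mast cell list was called in challenged lungs. Of its 23 genes, 21 were measured and 8 passed the filter that asked for a log2 value over 5 on at least 3 of the 7 arrays. The median log2 difference of the 8 was -0.20, with a median of 0.00 over all tested genes. The protease genes of the mast cell granule lay under 5 in both genotypes, so these arrays could show no loss of them. Chymase Cma1 read 4.40, 4.12, 2.84 and 2.82 in KitWsh OVA lungs and 2.66, 2.29 and 2.36 in WT OVA lungs, and carboxypeptidase Cpa3 read 3.05 to 3.40 in KitWsh OVA lungs and 3.05 to 3.18 in WT OVA lungs. The tryptases Tpsb2 and Tpsab1 and the chymase Mcpt4 lay at or under 2.50 on all 7 arrays, and the IgE receptor chains Fcer1a and Ms4a2 lay under 5 on all 7. Hdc, the histidine decarboxylase that makes histamine, read 10.45, 9.97, 9.98 and 9.99 in KitWsh OVA lungs and 11.12, 10.77 and 10.82 in WT OVA lungs. The Hdc groups did not overlap, but the log2 difference of -0.81 ± 0.16 was not called (adjusted p = 0.0581). A second Hdc probe set averaged 9.02 in KitWsh OVA lungs and 10.3 in WT OVA lungs and was called when every probe set was tested on its own (log2 difference -1.25, adjusted p = 0.0238 over probe sets).

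The ligand of Kit and its signalling genes gave no call. Kitl, the ligand, read 12.10, 11.89, 12.30 and 11.87 in KitWsh OVA lungs and 11.93, 11.56 and 11.99 in WT OVA lungs, with overlapping groups (log2 difference 0.21 ± 0.16, adjusted p = 0.561). None of the 19 tested genes of Kit signalling was called in either direction, and their median log2 difference was 0.13. Among 32 tested neighbours of Kit, Atp10d alone was called, with a log2 difference of 1.49 ± 0.12 (adjusted p = 0.00119, 2.80-fold). Its call was kept whichever of the 7 arrays was left out. Kdr, the endothelial receptor for vascular endothelial growth factor next to Kit, had a log2 difference of 0.52 ± 0.15 and was not called (adjusted p = 0.128). Corin, the membrane protease named in descriptions of the rearrangement and picked out after its values were seen, read 2.19 in all 4 KitWsh OVA lungs and 3.95, 5.90 and 5.16 in WT OVA lungs. It passed the filter on too few arrays to be tested, and it lay at or under 2.49 in the unchallenged lungs of both genotypes.

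Over all genes, 111 of 11012 were called at an adjusted p under 0.05, which is 1.01% of those tested. KitWsh OVA lungs were higher in 39 (0.354%) and lower in 72 (0.654%), and 1832 genes had an unadjusted p under 0.05. The median log2 difference was 1.22 among genes called higher and -1.18 among genes called lower. The difference was over 2-fold in 27 of the genes called higher and 49 of those called lower. The 2 groups of arrays did not overlap for any called gene. They did not overlap in 16.3% of all tested genes, with KitWsh higher in 7.36% and lower in 8.93%. Of the called genes, 12 passed the filter through the WT arrays alone and 8 through the KitWsh arrays alone. Such a gene could enter the test only by being high in 1 group, so for it a fold is given as a lower bound, written "at least", with no exact difference, and its adjusted p rests partly on values under 5. Kit is among the 111 by the choice of arrays. Counts moved with the choice of arrays: 19 genes were called without WT OVA array 2 and 168 without KitWsh OVA array 3. Of the 168, 96 were higher and 72 lower. Higher and lower calls numbered 13 each without WT OVA array 1, 10 and 9 without WT OVA array 2, and 15 and 16 without KitWsh OVA array 2. The larger share of lower calls was thus lost or nearly lost in these omissions. Of the 111, 16 were called whichever of the 7 arrays was left out. The 16 were Kit, Atp10d, Ngp, Camp, Slc4a1, Adgre4, Treml4, Cyp2e1, Arg1, Hmox1, Cfi, Timp1, Fxyd4, Chia1, Actg2 and Fetub, and every other call was lost in at least 1 omission. Among them, Ngp, Camp, Treml4, Arg1, Hmox1, Cfi and Fxyd4 passed the filter through 1 group alone. The omissions did not repeat the filter, so a kept call is no further evidence of the direction of these genes. Of 33 other probe sets that passed the filter for called genes, 32 had the sign of the gene's own probe set, Ctse being the exception.

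**Figure D2:**
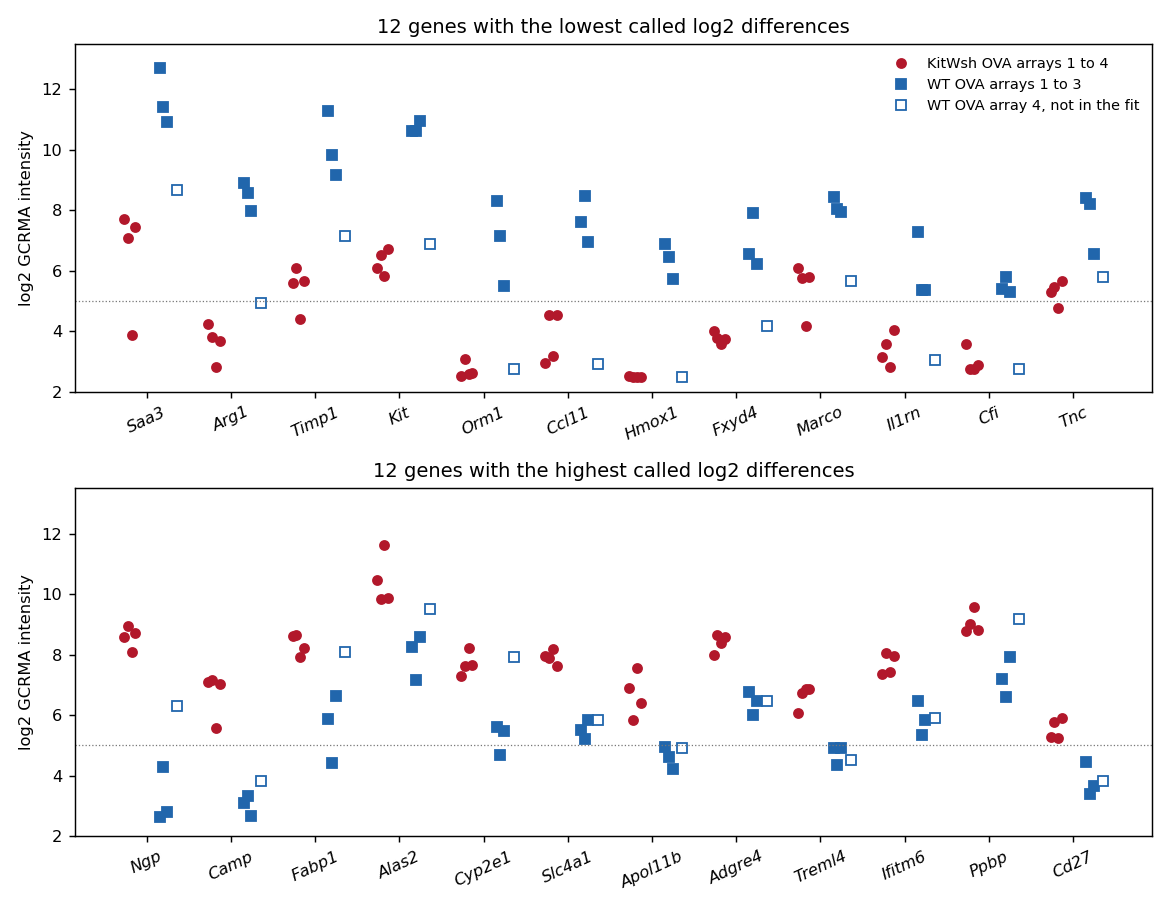
Log2 GCRMA intensity of the 12 genes with the lowest and the 12 with the highest called log2 differences, with KitWsh OVA arrays as circles, WT OVA arrays 1 to 3 as filled squares, WT OVA array 4 as open squares and the dotted line at 5. Circles and filled squares do not overlap for any of the 24 genes, and the open squares lie near the circles for most of the upper panel and near the filled squares for several genes of the lower panel.

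Several genes of the response to IL-4 and IL-13 fell in KitWsh OVA lungs. Of 17 tested members, 3 fell (Arg1, Ccl11 and Timp1, which is described with the matrix genes), none rose, and the median log2 difference was -0.60. Over all tested genes, 0.654% were called lower. Of the 17, 2 (Arg1 and Ccl11) passed the filter through the WT arrays alone, so their direction was fixed by the filter. Arg1, the arginase of alternatively activated macrophages, read 4.23, 3.81, 2.82 and 3.69 in KitWsh OVA lungs, against 8.91, 8.58 and 7.99 in WT OVA lungs. The KitWsh values were all below the level where order can be read and the WT values were all well above it, so Arg1 was at least 11.3-fold lower in KitWsh OVA lungs (adjusted p = 0.000371). Ccl11, the chemokine eotaxin that attracts eosinophils, read 2.94, 4.55, 3.19 and 4.54 in KitWsh OVA lungs, against 7.61, 8.46 and 6.95 in WT OVA lungs. Every WT array in the fit was above 5 and every KitWsh array below it, so Ccl11 was at least 6.38-fold lower in KitWsh OVA lungs (adjusted p = 0.00873). The Ccl11 call was lost when WT OVA array 1 or 2 was left out, with an adjusted p of up to 0.053. Chil4, a chitinase-like protein of the same response, read 9.55, 10.28, 8.20 and 10.15 in KitWsh OVA lungs and 10.72, 12.16 and 12.16 in WT OVA lungs and was not called (log2 difference -2.14 ± 0.52, adjusted p = 0.0978). Retnla and Chil3, further products of alternatively activated macrophages, had log2 differences of -0.42 ± 0.25 and -0.31 ± 0.20 and were not called. Siglecf, carried by eosinophils and alveolar macrophages, had a log2 difference of -0.17 ± 0.23 and was not called, and the eosinophil granule genes Epx and Prg3 lay at the floor on all 7 arrays. In whole-lung RNA, fewer cells of a type and less RNA per cell cannot be told apart.

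Hmox1, Marco, Il1rn, Ptges and Arg2 were also called lower, while the macrophage and lipid-mediator lists held 1 call each or none. Hmox1, the haem-degrading enzyme haem oxygenase, read 2.53, 2.48, 2.48 and 2.48 in KitWsh OVA lungs, against 6.88, 6.46 and 5.73 in WT OVA lungs. All KitWsh arrays lay next to the floor, and Hmox1 was at least 2.57-fold lower there (adjusted p = 0.00022). Marco, a scavenger receptor of alveolar macrophages, read 6.09, 5.76, 4.17 and 5.80 in KitWsh OVA lungs and 8.46, 8.04 and 7.95 in WT OVA lungs. Every WT array exceeded every KitWsh array for Marco, which was 6.47-fold lower in KitWsh OVA lungs (log2 difference -2.69 ± 0.41, adjusted p = 0.0259). KitWsh OVA array 3 lay under 5 for Marco and set part of this size. Il1rn, the antagonist of the IL-1 receptor, read 3.16, 3.57, 2.83 and 4.04 in KitWsh OVA lungs and 7.28, 5.38 and 5.36 in WT OVA lungs, at least 2.01-fold lower in KitWsh OVA lungs (adjusted p = 0.0443), a bound that became 1.29-fold without WT OVA array 1. The Marco call was lost in 4 of the 7 omissions and the Il1rn call in 6, with adjusted p of up to 0.126 and 0.124 without WT OVA array 2. Marco was the only 1 of 14 tested alveolar macrophage genes called, and the median log2 difference of the 14 was -0.47. None of 16 monocyte and recruited macrophage genes was called (median -0.58). Among these, Cd68, a lysosomal macrophage marker, had a log2 difference of -1.38 ± 0.37 (adjusted p = 0.117). Ptges, the prostaglandin E synthase, read 5.31, 6.08, 5.60 and 5.74 in KitWsh OVA lungs and 7.33, 6.77 and 6.67 in WT OVA lungs and was the only gene called of 12 tested in the leukotriene, prostaglandin and histamine list (log2 difference -1.24 ± 0.22, adjusted p = 0.0394). The Ptges call was lost in each of the 7 omissions, with an adjusted p of up to 0.159. Arg2, the mitochondrial arginase, had a log2 difference of -1.48 ± 0.22 (adjusted p = 0.0256, up to 0.139 without WT OVA array 2).

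The called gene with the largest fitted fall was an acute-phase gene, a rank that rests partly on values under 5. Without KitWsh OVA array 3 the fitted fall of Arg1, all of whose KitWsh values lay under 5, was larger. Saa3, an acute-phase serum amyloid A made by macrophages and epithelium, read 7.72, 7.10, 3.90 and 7.44 in KitWsh OVA lungs, against 12.70, 11.43 and 10.91 in WT OVA lungs. KitWsh OVA array 3 was far below the other KitWsh arrays, and all 4 lay below every WT array in the fit. Saa3 was 35.2-fold lower in KitWsh OVA lungs (log2 difference -5.14 ± 0.85, adjusted p = 0.0324), a call lost in 5 of the 7 omissions, with an adjusted p of up to 0.157 without WT OVA array 2. Array 3 lay under 5 and set part of this size: without it Saa3 was 19.1-fold lower in KitWsh OVA lungs. Orm1, the plasma protein orosomucoid, read 2.54, 3.10, 2.59 and 2.63 in KitWsh OVA lungs and 8.31, 7.16 and 5.51 in WT OVA lungs. Its KitWsh values were close to the floor, and Orm1 was at least 3.98-fold lower in KitWsh OVA lungs (adjusted p = 0.00873, and 0.0621 without WT OVA array 2). The Orm1 bound was 2.52-fold without WT OVA array 1 and 6.65-fold without WT OVA array 3. Il33, the epithelial alarmin that activates type 2 lymphocytes and mast cells, read 12.03, 11.92, 11.18 and 11.99 in KitWsh OVA lungs and 13.01, 13.11 and 12.70 in WT OVA lungs. The groups were apart for Il33, by a smaller step than for Saa3 (log2 difference -1.16 ± 0.22, adjusted p = 0.0495), and its call was lost in 6 of the 7 omissions (up to 0.23 without WT OVA array 2). Together with Saa3 and Orm1 it made 3 lower and none higher among 12 tested inflammatory and acute-phase genes, whose median log2 difference was -0.68. Over all tested genes, 0.654% were called lower. Of the 12, 2 passed the filter through 1 group alone, Orm1 among them. No member was called without WT OVA array 2, and 1 was called without KitWsh OVA array 2 or 4 or without WT OVA array 1 or 3. Outside that list, the acute-phase genes Serpina3n (log2 difference -1.68 ± 0.23), Lbp, which binds bacterial lipopolysaccharide (-0.84 ± 0.13), and the iron hormone hepcidin, Hamp (-2.14 ± 0.36), were called lower. So were Cfi, the complement factor I protease (adjusted p = 0.00205), and Osmr, the receptor of oncostatin M (-0.65 ± 0.12, adjusted p = 0.0478). The calls of Serpina3n, Lbp, Hamp and Osmr were lost in 2, 5, 4 and 6 of the 7 omissions, and that of Cfi in none. Cfi read 3.60, 2.76, 2.76 and 2.89 in KitWsh OVA lungs and 5.39, 5.78 and 5.32 in WT OVA lungs, at least 1.41-fold lower in KitWsh OVA lungs. It passed the filter through the WT arrays alone, so its direction was fixed by the filter.

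The promoter of Saa3 is shown because it belongs to the called gene with the largest fitted fall. The letters are the 250 bases before the RefSeq transcription start, from build GRCm38.p6, chr7:46715677-46715926 on the minus strand, with matches to TTNNGNAA on either strand in capitals, the core pattern bound by the C/EBP factors that act on acute-phase and granulocyte genes.
Saa3: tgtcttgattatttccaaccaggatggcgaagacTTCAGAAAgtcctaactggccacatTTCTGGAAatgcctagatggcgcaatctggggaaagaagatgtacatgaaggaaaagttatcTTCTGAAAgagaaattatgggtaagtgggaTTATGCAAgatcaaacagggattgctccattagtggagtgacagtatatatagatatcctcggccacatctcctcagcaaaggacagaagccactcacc
It held 4 such matches. Windows of this length held at least 1 match in 10884 of 27025 genes with a promoter entry (40.3%), in 32 of the 53 genes called lower that have an entry (60.4%) and in 11 of the 33 called higher (33.3%). A match describes letters and is not a binding site, and shares are given without a test.

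Goblet cell and mucus genes gave no call, with all differences in 1 direction. All 14 tested goblet cell and mucus genes had negative log2 differences, with a median of -0.96, and none was called. In 10 of the 14 every KitWsh OVA array lay below every WT OVA array in the fit, as in 8.93% of all tested genes. Muc4, a membrane mucin, read 9.29, 9.13, 8.45 and 9.08 in KitWsh OVA lungs and 10.01, 9.96 and 9.96 in WT OVA lungs (log2 difference -0.99 ± 0.20, adjusted p = 0.056). Agr2, the endoplasmic reticulum protein needed to fold mucins, read 6.84, 7.04, 5.23 and 6.89 in KitWsh OVA lungs and 8.39, 8.16 and 8.59 in WT OVA lungs (adjusted p = 0.064). Slc26a4, the anion exchanger pendrin, read 8.31, 8.33, 4.60 and 8.10 in KitWsh OVA lungs and 10.99, 11.46 and 10.25 in WT OVA lungs (adjusted p = 0.0869). KitWsh OVA array 3 was the lowest array for Agr2 and Slc26a4, as for Saa3. The secreted mucin Muc5ac and the goblet cell protein Clca1, with log2 differences of -0.48 ± 0.34 and -0.57 ± 0.30, had overlapping groups.

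Outside the list, Fxyd4 was called lower, and so were Chia1, Cxcl17, F7 and Elf3, which were picked out because they were called and stand for no list. Fxyd4, a regulator of the sodium pump, read 4.02, 3.77, 3.58 and 3.77 in KitWsh OVA lungs and 6.56, 7.93 and 6.23 in WT OVA lungs. It was at least 3.75-fold lower in KitWsh OVA lungs (adjusted p = 0.00717). Chia1, the acidic mammalian chitinase, read 11.05, 10.86, 11.01 and 11.04 in KitWsh OVA lungs and 12.16, 12.62 and 12.12 in WT OVA lungs. The KitWsh values lay within 0.2 of each other and more than 1 unit below the lowest WT array, giving a 2.49-fold lower level in KitWsh OVA lungs (log2 difference -1.31 ± 0.15, adjusted p = 0.00771). Cxcl17, a mucosal chemokine, also fell (log2 difference -0.78 ± 0.13), as did coagulation factor F7 (-1.64 ± 0.29) and the epithelial transcription factor Elf3 (-0.71 ± 0.11). These last 3 calls were lost in 5, 6 and 5 of the 7 omissions for Cxcl17, F7 and Elf3. None of 15 tested ciliated cell markers was called (median -0.26). Of 20 genes of heat shock and endoplasmic reticulum folding, which secreting cells use, 18 had negative differences, with a median of -0.34 and none called.

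Some genes of the extracellular matrix and of smooth muscle fell in KitWsh OVA lungs. Of 22 tested matrix genes 3 fell, against 0.654% of all tested genes called lower, and none rose. In the list 20 had negative differences, and the median log2 difference was -0.80. The number that fell was 1 without KitWsh OVA array 2 or WT OVA array 1 or 2, and 6 without WT OVA array 3. Timp1, the inhibitor of matrix metalloproteases, read 5.60, 6.10, 4.40 and 5.65 in KitWsh OVA lungs, against 11.29, 9.84 and 9.18 in WT OVA lungs. The lowest WT array exceeded the highest KitWsh array by about 3 units. Timp1 was 25.3-fold lower in KitWsh OVA lungs (log2 difference -4.66 ± 0.51, adjusted p = 0.00695), and 16.8-fold lower without WT OVA array 1. KitWsh OVA array 3 lay under 5, and without it Timp1 was 19.9-fold lower in KitWsh OVA lungs. Tnc, the matricellular protein tenascin C made in injured airways, read 5.31, 5.48, 4.76 and 5.67 in KitWsh OVA lungs and 8.40, 8.22 and 6.57 in WT OVA lungs. WT OVA array 3 lay closest to the KitWsh arrays, and Tnc was 5.37-fold lower in KitWsh OVA lungs (adjusted p = 0.0344, lost in 5 of the 7 omissions, up to 0.176). KitWsh OVA array 3 lay under 5 for Tnc and set part of this size. Col1a1, the main fibrillar collagen chain, read 7.62, 8.55, 8.15 and 8.73 in KitWsh OVA lungs and 10.14, 10.37 and 9.72 in WT OVA lungs (log2 difference -1.82 ± 0.27, adjusted p = 0.0233, and 0.139 without WT OVA array 2). Its companion Col3a1 was not called (log2 difference -1.29 ± 0.26, adjusted p = 0.057). Among genes outside the list, Vcan, the proteoglycan versican, was at least 2.40-fold lower in KitWsh OVA lungs (adjusted p = 0.0344). Serpinh1, the collagen chaperone, had a log2 difference of -1.33 ± 0.22 (adjusted p = 0.0307). A second Serpinh1 probe set had a log2 difference of -0.94 and was not called (adjusted p = 0.271 over probe sets). The Vcan and Serpinh1 calls were each lost in 5 of the 7 omissions, with adjusted p of up to 0.165 and 0.161 without WT OVA array 2. Of 12 general fibroblast markers, 11 had positive differences, with a median of 0.29, and none was called.

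The smooth muscle list had 3 of 12 tested genes lower, against 0.654% of all tested genes, and none higher, with a median log2 difference of -0.60. It had 1 lower without KitWsh OVA array 2 or 4 or WT OVA array 1 or 2. Actg2, the smooth muscle gamma-actin, read 6.14, 5.70, 6.27 and 6.46 in KitWsh OVA lungs and 7.96, 8.23 and 7.68 in WT OVA lungs. It was 3.50-fold lower in KitWsh OVA lungs (log2 difference -1.81 ± 0.20, adjusted p = 0.00717) and stayed called in all 7 omissions. Cnn1, the actin-binding protein calponin, read 6.40, 6.20, 6.76 and 6.44 in KitWsh OVA lungs and 8.29, 7.95 and 7.35 in WT OVA lungs (log2 difference -1.42 ± 0.23, adjusted p = 0.0291, and 0.161 without WT OVA array 2). Acta2, the alpha-actin of smooth muscle and myofibroblasts, read 11.70, 11.36, 11.50 and 11.60 in KitWsh OVA lungs and 12.24, 12.46 and 12.13 in WT OVA lungs. The groups were apart by less than 1 unit, and the Acta2 call (log2 difference -0.73 ± 0.14, adjusted p = 0.0497) was lost in each of the 7 omissions, with 0.234 as the highest value. Heart muscle genes, which whole lung can carry from attached vessels, had 9 of 10 negative differences and no call. The log2 of their summed intensity was 11.8 to 12.7 in KitWsh OVA lungs and 12.5 to 12.8 in WT OVA lungs over the 14 list members measured, and their part in the smooth muscle result was not tested.

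The called gene with the largest fitted rise was a gene of the secondary neutrophil granule. Ngp, neutrophilic granule protein, which is made by developing neutrophils, read 8.59, 8.96, 8.10 and 8.72 in KitWsh OVA lungs, against 2.65, 4.28 and 2.81 in WT OVA lungs. All WT arrays in the fit lay below 5 and all KitWsh arrays above 8, so Ngp was at least 12.1-fold higher in KitWsh OVA lungs (adjusted p = 0.000387). Camp, the precursor of the antimicrobial peptide CRAMP, read 7.09, 7.15, 5.59 and 7.05 in KitWsh OVA lungs and 3.09, 3.33 and 2.68 in WT OVA lungs. It was at least 3.29-fold higher in KitWsh OVA lungs (adjusted p = 0.00415), with KitWsh OVA array 3 lower than the other KitWsh arrays. Both calls were kept in all 7 omissions, which did not repeat the filter, so their direction stayed fixed by it. Ngp and Camp were the only 2 of 11 tested members called, against 0.354% of all tested genes called higher. Of the 11, 4 passed the filter through 1 group alone, Ngp and Camp among them, and the median log2 difference was 0.41. Ltf, the lactoferrin of the same granule, had a log2 difference of -0.82 ± 0.25, and the siderophore-binding Lcn2, which airway epithelium also makes, had one of -1.69 ± 0.34 (adjusted p = 0.153 and 0.0587). The abundant neutrophil genes S100a8 and S100a9 had log2 differences of 0.55 ± 0.28 and 0.89 ± 0.25 with overlapping groups and no call. The primary granule genes Mpo and Elane lay at or under 2.37 on all 7 arrays. Over the 16 list members measured, the log2 of the summed intensity was 14.6 to 15.3 in KitWsh OVA lungs and 15.2 to 15.6 in WT OVA lungs. Cd177, a neutrophil surface protein outside the list, was lower, at 8.30, 8.01, 6.85 and 8.05 in KitWsh OVA lungs and 10.38, 10.36 and 9.67 in WT OVA lungs (log2 difference -2.34 ± 0.34, adjusted p = 0.0221).

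The promoter of Ngp is shown as that of the gene with the largest fitted rise, from build GRCm38.p6, chr9:110419558-110419807 on the plus strand, with the same C/EBP pattern in capitals.
Ngp: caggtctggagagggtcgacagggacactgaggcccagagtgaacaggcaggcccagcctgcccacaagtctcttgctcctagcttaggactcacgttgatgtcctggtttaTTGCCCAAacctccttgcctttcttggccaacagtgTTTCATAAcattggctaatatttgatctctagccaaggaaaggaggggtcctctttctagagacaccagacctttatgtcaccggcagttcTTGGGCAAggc
It held 3 matches. The same window of Camp held none, which says only that these letters were not found there.

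Several red cell and platelet genes rose in KitWsh OVA lungs. Of 4 tested erythroid genes 2 rose, against 0.354% of all tested genes called higher, and none fell. The other 2 had negative differences. The log2 of the summed intensity of the 9 members measured was 11.3 to 12.1 in KitWsh OVA lungs and 11.4 to 12.0 in WT OVA lungs, with overlapping groups. Slc4a1, the anion exchanger of the red cell membrane, read 7.95, 7.90, 8.19 and 7.63 in KitWsh OVA lungs and 5.52, 5.22 and 5.85 in WT OVA lungs. The groups lay well apart, and Slc4a1 was 5.22-fold higher in KitWsh OVA lungs (log2 difference 2.39 ± 0.19, adjusted p = 0.000826), a call kept in all 7 omissions. A second Slc4a1 probe set averaged 7.57 in KitWsh OVA lungs and 3.88 in WT OVA lungs. It was called when every probe set was tested on its own (adjusted p = 0.000825 over probe sets). Alas2, the erythroid enzyme that starts haem synthesis, read 10.48, 9.83, 11.62 and 9.86 in KitWsh OVA lungs and 8.24, 7.15 and 8.59 in WT OVA lungs. It was 5.50-fold higher in KitWsh OVA lungs (log2 difference 2.46 ± 0.47, adjusted p = 0.0495), but the call was lost in 6 of the 7 omissions (up to 0.205 without WT OVA array 2). Tfrc, the transferrin receptor that red cell precursors share with many dividing cells, had a log2 difference of -1.16 ± 0.22 in the opposite direction and was not called (adjusted p = 0.0506). The erythroid transcription factor Klf1, the globin Hba-a1 and the carbonic anhydrase Car1 averaged at most 2.24 in either group. Probe sets with several symbols were not used, and the globins Hbb-b1 and Hbb-bt were not among the genes measured. These values therefore do not stand for globin RNA as a whole.

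Of 7 tested megakaryocyte and platelet genes 4 rose, against 0.354% of all tested genes called higher, and none fell. The median log2 difference of the 7 was 0.87. None rose to a call without KitWsh OVA array 2 or 4 or WT OVA array 1 or 2, and 1 did without KitWsh OVA array 1. Ppbp, a chemokine stored in platelet granules, read 8.78, 9.01, 9.59 and 8.82 in KitWsh OVA lungs and 7.19, 6.62 and 7.94 in WT OVA lungs. It was 3.48-fold higher in KitWsh OVA lungs (log2 difference 1.80 ± 0.31, adjusted p = 0.0344). Clec1b, the platelet receptor for podoplanin, had a log2 difference of 1.17 ± 0.20 (adjusted p = 0.0325), the integrin subunit Itga2b one of 0.94 ± 0.17 (adjusted p = 0.0459) and the transcription factor Nfe2 one of 0.87 ± 0.17 (adjusted p = 0.0495). Outside the list, Tubb1, the platelet beta-tubulin, and Alox12, the platelet lipoxygenase, were called higher, with log2 differences of 1.40 ± 0.26 and 1.15 ± 0.19. None of these platelet calls was kept in every omission, with adjusted p of up to 0.157 for Ppbp, 0.176 for Clec1b and 0.214 for Itga2b without WT OVA array 2. Pf4, another platelet chemokine, read 9.40, 9.08, 9.04 and 9.11 in KitWsh OVA lungs and 9.63, 8.95 and 9.14 in WT OVA lungs, with overlapping groups. The log2 of the summed intensity of the 12 members measured was 10.8 to 11.0 in KitWsh OVA lungs and 10.0 to 10.5 in WT OVA lungs.

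The promoter of Alas2 is shown, from build GRCm38.p6, chrX:150547167-150547416 on the plus strand. By the probe set standing for each gene, Alas2 had the largest fitted rise of the red cell genes. Without KitWsh OVA array 3 the fitted rise of Slc4a1 was larger. Capitals mark AGATAA on either strand, the pattern of the GATA factors that drive red cell and platelet genes.
Alas2: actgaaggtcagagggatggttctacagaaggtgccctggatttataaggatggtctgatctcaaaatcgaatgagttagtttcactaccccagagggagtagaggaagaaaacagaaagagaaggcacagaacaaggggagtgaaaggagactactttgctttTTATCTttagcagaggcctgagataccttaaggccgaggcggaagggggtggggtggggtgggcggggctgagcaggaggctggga
It held 1 match. The pattern was found in 3090 of 27025 genes (11.4%), in 1 of the 33 genes called higher (3.03%) and in 3 of the 53 called lower (5.66%).

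Most lymphocyte genes had positive differences in KitWsh OVA lungs, with few calls. Cd27, a co-stimulatory receptor of T cells and memory B cells, read 5.29, 5.77, 5.25 and 5.91 in KitWsh OVA lungs and 4.45, 3.41 and 3.67 in WT OVA lungs, at least 1.47-fold higher in KitWsh OVA lungs (adjusted p = 0.0282). Btla, an inhibitory receptor of B and T cells, read 9.64, 9.95, 9.57 and 10.06 in KitWsh OVA lungs and 8.87, 7.80 and 8.19 in WT OVA lungs (log2 difference 1.52 ± 0.24, adjusted p = 0.0302). Every KitWsh array exceeded every WT array in the fit for both. The Cd27 call was lost in 4 and the Btla call in 5 of the 7 omissions, with an adjusted p of up to 0.139 for both, without WT OVA array 2. Fcrl1, a B cell receptor of the Fc receptor-like family, was at least 1.36-fold higher in KitWsh OVA lungs (adjusted p = 0.011), and the transcription factor Mef2c had a log2 difference of 1.04 ± 0.15 (adjusted p = 0.0221). In the B cell list 12 of 13 tested genes had positive differences and none was called, with a median of 0.93. Ms4a1, which encodes CD20, read 9.82, 10.68, 9.56 and 10.78 in KitWsh OVA lungs and 9.41, 8.18 and 8.65 in WT OVA lungs (log2 difference 1.47 ± 0.36, adjusted p = 0.0995), and the groups did not overlap. All 15 tested T cell genes and all 11 natural killer and cytotoxic genes had positive differences with no call, with medians of 0.63 and 0.66. Cd28, the co-stimulatory receptor of T cells, had a log2 difference of 1.37 ± 0.36 (adjusted p = 0.111), and the protease Gzmk one of 1.82 ± 0.45 (adjusted p = 0.101). Plasma cell genes had a median of -0.03 and no call. The immunoglobulin segment Ighg3, passed over by the naming rule, was called lower (log2 difference -2.85 ± 0.36). Cell cycle genes, 13 of 18 positive, had a median of 0.65 and no call.

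Most of the remaining lists held no call. Fc receptor genes had a median log2 difference of -0.63 (9 tested), glucocorticoid response genes -0.31 (13), adipocyte and alveolar type 2 genes -0.20 each (7 and 12) and lymphatic endothelial genes -0.15 (5). The IFN-gamma response had a median of -0.08 (17) and the type I interferon response one of -0.03 (15). Dendritic cell (0.05, 14 tested), endothelial (0.08, 18) and MHC class II genes (0.14, 11) had medians near 0. Club cell (0.15, 12), alveolar type 1 (0.23, 11) and circadian clock genes (0.25, 13) had slightly higher ones. In the clock list the groups did not overlap for 4 genes higher and 2 lower in KitWsh OVA lungs, as in 7.36% and 8.93% of all tested genes. Mesothelial (0.40, 7), haematopoietic progenitor (0.45, 5) and type 2 lymphocyte genes (0.50, 4) were the highest of these lists without a call. In the immediate early list Nr4a1 alone was called (1 of 15, median -0.03). Of the basophil list 3 were tested, with Itga2b, shared with platelets, called higher and a median of 0.94. Of the eosinophil list 2 were tested, and of the list of other Kit-dependent cell types 1, with no call.

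**Figure D3:**
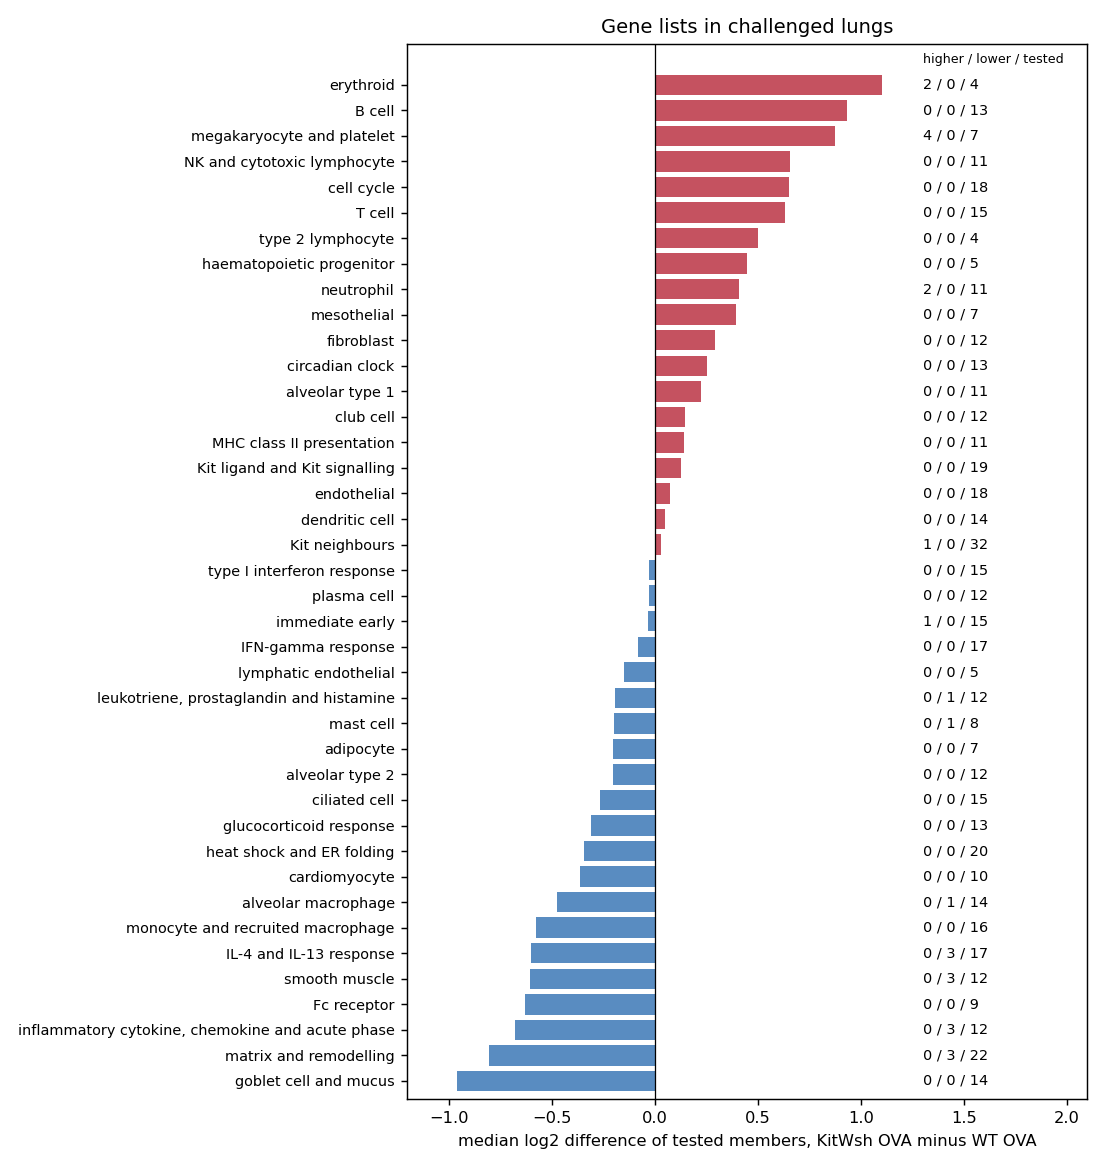
Median log2 difference, KitWsh OVA minus WT OVA arrays 1 to 3, of the tested members of each gene list with at least 4 tested genes, with the numbers called higher, called lower and tested at the right. Erythroid, B cell and platelet lists have the highest medians (1.10, 0.93 and 0.87). Goblet cell, matrix and inflammatory lists have the lowest (-0.96, -0.80 and -0.68), and most lists hold no call. The erythroid median is of 4 tested genes, 2 with positive and 2 with negative differences.

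Further genes among the 12 highest called differences belong to no list given above. Adgre4, an adhesion receptor of monocytes and macrophages, read 8.00, 8.64, 8.38 and 8.59 in KitWsh OVA lungs and 6.76, 6.02 and 6.49 in WT OVA lungs, 3.95-fold higher in KitWsh OVA lungs (log2 difference 1.98 ± 0.21, adjusted p = 0.00695). Treml4, a receptor of myeloid cells that binds dying cells, read 6.08, 6.73, 6.85 and 6.86 in KitWsh OVA lungs and 4.90, 4.34 and 4.92 in WT OVA lungs, at least 3.09-fold higher in KitWsh OVA lungs (adjusted p = 0.00841). Both were kept in all 7 omissions, and in both WT OVA array 4 read with the other WT arrays, at 6.48 for Adgre4 and 4.53 for Treml4. Treml4 passed the filter through the KitWsh arrays alone, so its direction was fixed by the filter. Ifitm6, a member of the interferon-induced transmembrane family, read 7.38, 8.04, 7.42 and 7.95 in KitWsh OVA lungs and 6.47, 5.33 and 5.84 in WT OVA lungs (log2 difference 1.82 ± 0.28, adjusted p = 0.0264, lost in 4 of the 7 omissions, up to 0.117). Outside these 12 genes, Nr4a1, an orphan nuclear receptor that patrolling monocytes need, had a log2 difference of 0.76 ± 0.14 (adjusted p = 0.0478). Cyp2e1, a cytochrome P450, read 7.30, 7.64, 8.21 and 7.66 in KitWsh OVA lungs and 5.61, 4.67 and 5.49 in WT OVA lungs. The groups were more than 1 unit apart, and Cyp2e1 was 5.45-fold higher in KitWsh OVA lungs (log2 difference 2.45 ± 0.27, adjusted p = 0.00695). Fabp1, the liver-type fatty acid binding protein, read 8.61, 8.66, 7.94 and 8.23 in KitWsh OVA lungs and 5.89, 4.43 and 6.64 in WT OVA lungs, 6.53-fold higher in KitWsh OVA lungs (adjusted p = 0.0305, up to 0.107 without KitWsh OVA array 2), and 4.28-fold higher without WT OVA array 2. Apol11b, an apolipoprotein L family gene, read 6.90, 5.85, 7.55 and 6.40 in KitWsh OVA lungs and 4.95, 4.64 and 4.21 in WT OVA lungs, at least 3.19-fold higher in KitWsh OVA lungs (adjusted p = 0.0367, up to 0.174 without WT OVA array 2). Mcpt8, the basophil protease, picked out after its values were seen, read 5.40, 6.33, 3.71 and 6.55 in KitWsh OVA lungs and 2.46, 2.98 and 2.19 in WT OVA lungs and was not called (adjusted p = 0.057).

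The same genotypes were compared without challenge, in arrays that the comparison above did not use. Between KitWsh PBS and WT PBS lungs, 1958 of 10983 genes were called (17.8%), 1297 higher and 661 lower, and the median log2 difference of all genes was 0.10. The count ran from 611 without KitWsh PBS array 3 to 3660 without WT PBS array 4. The 3′ minus 5′ difference of beta-actin was 1.74, 2.48 and 1.99 in KitWsh PBS lungs and 1.22, 1.32, 1.17 and 1.77 in WT PBS lungs. WT PBS array 4 was the highest WT PBS array, and the part of this difference in the unchallenged calls was not tested. The circadian clock list moved with genotype in these lungs, with 10 of 13 tested genes higher and 1 lower, against none of 13 called in challenged lungs, and its part in the unchallenged calls was not tested. Of the 39 genes called higher under challenge, 37 were tested in PBS lungs, where 29 had the same sign (78.4%) and 15 were called higher. Of the 72 called lower, 61 were tested in PBS lungs, where 46 had the same sign (75.4%) and 11 were called lower. Over all genes tested in both, 56.4% had the same sign, 11.8% of the genes tested in PBS lungs were called higher and 6.02% lower. Fabp1 was the gene called higher under challenge and lower in PBS lungs, and Hk2, a hexokinase, the gene called lower under challenge and higher in PBS lungs. Across the 10825 genes tested in both, the log2 differences had a Pearson r of 0.233, given as a description because genes are not independent.

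Kit, Atp10d and the neutrophil granule genes Ngp and Camp were called in PBS lungs. Under challenge, Ngp and Camp passed the filter through the KitWsh arrays alone, so their direction there was fixed by the filter. Atp10d is encoded near Kit, and WT OVA array 4, left out for its Kit value, also had a KitWsh-like Atp10d value. Kit read 5.54, 5.72 and 5.24 in KitWsh PBS lungs and 10.12, 9.99, 9.86 and 10.28 in WT PBS lungs (log2 difference -4.56 ± 0.15, adjusted p = 3.63e-06), so the Kit difference was seen in arrays that its own selection did not touch. Atp10d read 9.10, 9.05 and 9.42 in KitWsh PBS lungs and 7.62, 7.47, 7.50 and 7.71 in WT PBS lungs (log2 difference 1.62 ± 0.12). Ngp read 10.01, 8.70 and 8.43 in KitWsh PBS lungs and 4.76, 5.29, 2.56 and 6.30 in WT PBS lungs (adjusted p = 0.0109). Camp read 8.10, 7.24 and 6.64 in KitWsh PBS lungs and 2.98, 4.21, 2.68 and 4.35 in WT PBS lungs, again with no overlap. All WT PBS values of Camp were under 5, so it passed the filter there through the KitWsh arrays alone. The platelet genes Ppbp, Tubb1 and Itga2b were also called higher in PBS lungs, with log2 differences of 1.47 ± 0.16, 1.94 ± 0.25 and 1.55 ± 0.26. Slc4a1 read 6.86, 8.05 and 6.21 in KitWsh PBS lungs and 6.08, 5.61, 6.24 and 6.79 in WT PBS lungs and was not called there (adjusted p = 0.172). Of the genes that fell, Timp1 was called lower in PBS lungs too (log2 difference -1.24 ± 0.30). Marco was also called lower there (adjusted p = 0.0105), at 4.84, 4.03 and 4.68 in KitWsh PBS lungs, all under 5, and between 5.43 and 6.6 in WT PBS lungs. It passed the filter there through the WT arrays alone, so its direction in PBS lungs was fixed by the filter.

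The difference between the 2 genotype differences was tested directly. It was called for 558 of 11214 genes (4.98%), upward in 1.7% and downward in 3.27%, and for 10 of the 39 genes called higher and 31 of the 72 called lower under challenge. Those genes were chosen for a large difference on the same OVA arrays, which favours a call here, so these shares are no evidence that challenge changed them more than other genes. Leaving out 1 array moved the 558 to between 160 (without WT OVA array 2) and 1072 (without WT PBS array 4). The test called Arg1 (adjusted p = 1.16e-05), but in PBS lungs Arg1 lay at or under 3.03 on all arrays of both genotypes, so no size is given. Hmox1, Orm1, Cfi and Fxyd4 showed the same form, with WT OVA arrays 1 to 3 alone above 5 among the 14 arrays of this test. Saa3 read 6.42, 6.99 and 7.18 in KitWsh PBS lungs and 6.28, 5.60, 7.26 and 7.44 in WT PBS lungs, with overlapping groups, and its challenged minus its unchallenged difference was -5.36 (adjusted p = 0.016). For Ngp and Camp the challenged and unchallenged differences were not shown to differ (adjusted p = 0.544 and 0.958), nor for Atp10d (adjusted p = 0.678).

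**Figure D4:**
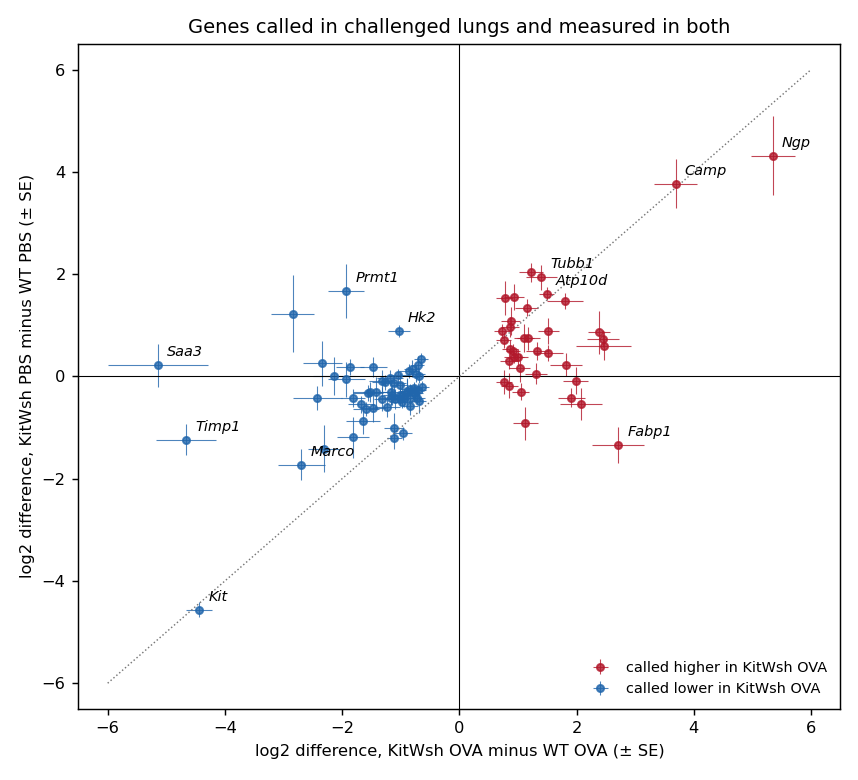
Log2 difference, KitWsh minus WT, with its standard error under OVA (horizontal axis) and under PBS (vertical axis) for the called genes tested in both, with the dotted line where the 2 are equal. Kit, Camp and Ngp lie near the line, the last 2 with most or all WT arrays under 5, and Saa3 and most other genes called lower under challenge lie closer to 0 on the vertical axis than on the horizontal one.

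With all 4 WT OVA arrays in the fit, 6 of 11033 genes were called (0.0544%), all of them higher: Slc4a1, Camp, Adgre4, Treml4, Fcrl1 and Hepacam2. No gene was called lower by limma, and 1067 genes had an unadjusted p under 0.05 in either direction. All 111 genes called with 3 WT arrays kept their sign, but this fit shares 7 of its 8 arrays with the first, so kept signs are no further evidence. Slc4a1 had a log2 difference of 2.31 ± 0.18 with the 4 WT arrays (adjusted p = 0.00269), and the adjusted p of Camp was 0.0112. Kit had -3.48 ± 0.78 (adjusted p = 0.208), and the adjusted p was 0.173 for Arg1 and 0.0849 for Ngp. WT OVA array 4 took no part in choosing the 111 genes beyond its omission. Placed for each on a scale with the mean of WT OVA arrays 1 to 3 at 0 and the KitWsh OVA mean at 1, its median position was 0.877. It lay nearer the KitWsh mean in 88 of 111 genes, namely 20 of the 39 called higher and 68 of the 72 called lower. It read 4.93 for Arg1, 2.93 for Ccl11 and 7.15 for Timp1, all nearer the KitWsh values. For Slc4a1, at 5.85, Camp, at 3.84, and Cd27, at 3.84, it lay nearer the other WT arrays.

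The challenged KitWsh mice that had been engrafted give a further view of the same genes, side by side and without a test, since such comparisons would share arrays. Their labels name the engraftment MC, MCifngR and MCigeR, which the sources used here do not spell out, and the genotype label of MCigeR mice also names FcεRIγ deficiency. Some of these arrays stood apart. On MCifngR OVA arrays 2 and 3, also labelled female, the Y-linked genes averaged 7.71 and 7.30, and Xist read 7.30 on the first and 7.70 on the second. The 3′ minus 5′ difference was 6.23 for beta-actin and 6.77 for Gapdh on MC OVA array 2, and 7.52 and 5.69 for Gapdh on MCifngR OVA arrays 1 and 4. Every MCifngR array thus stood apart in 1 of these measures, and the part of this in the levels was not tested. The granule gene Cma1 averaged 7.48 ± 0.49 in MC, 7.79 ± 1.54 in MCifngR and 5.02 ± 0.55 in MCigeR lungs (SD, n = 4 each). It lay under 5 on all KitWsh OVA arrays and on WT OVA arrays 1 to 3. Its MCigeR arrays read 4.67, 4.60, 5.03 and 5.79, and those under 5 cannot be ordered against KitWsh OVA lungs. Kit averaged 5.94 ± 0.43, 6.14 ± 0.96 and 5.95 ± 0.40 in the same 3 groups, near the KitWsh OVA level. Arg1 read 9.76, 8.20, 12.11 and 9.82 in MC lungs, which lay with the WT OVA arrays in the fit or above them, also without array 2. It read 3.71, 5.72, 4.11 and 7.30 in MCifngR lungs, with the Y-positive arrays 2 and 3 between arrays 1 and 4, and 7.37, 3.26, 4.01 and 4.79 in MCigeR lungs. Both groups spread from the KitWsh OVA level upward. Timp1 averaged 10.91 ± 0.37, 7.30 ± 1.17 and 7.04 ± 1.80 in MC, MCifngR and MCigeR lungs, and Saa3 12.00 ± 0.55, 8.94 ± 1.50 and 9.07 ± 2.06. Without array 2, MC lungs averaged 11.08 ± 0.19 for Timp1 and 11.73 ± 0.14 for Saa3 (SD, n = 3). In MCifngR lungs, the means of arrays 2 and 3 and of arrays 1 and 4 were 7.50 and 7.10 for Timp1, and 9.33 and 8.55 for Saa3. Ngp averaged 6.03 ± 1.39, 5.30 ± 1.02 and 6.79 ± 0.36, between its KitWsh OVA and WT OVA levels in all 3. Atp10d averaged 8.96 ± 0.60, 9.66 ± 0.14 and 9.49 ± 0.06, above WT OVA arrays 1 to 3 in all 3 groups.

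**Figure D5:**
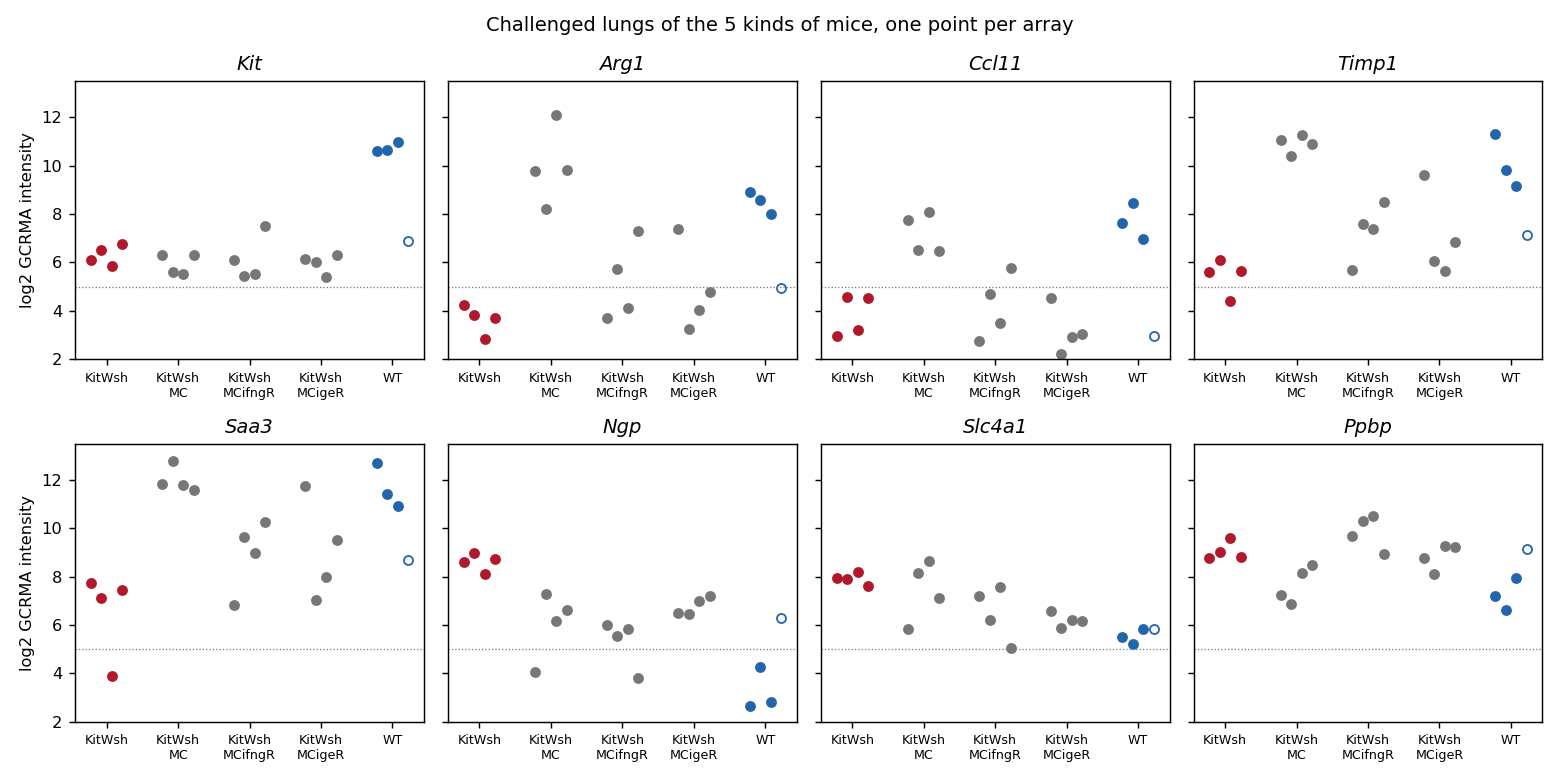
Log2 GCRMA intensity of Kit, Arg1, Ccl11, Timp1, Saa3, Ngp, Slc4a1 and Ppbp in the challenged lungs of KitWsh, KitWsh MC, KitWsh MCifngR, KitWsh MCigeR and WT mice, 1 point per array, with WT OVA array 4 open and the dotted line at 5. For Arg1, Ccl11, Timp1 and Saa3 the MC arrays overlap or exceed WT OVA arrays 1 to 3, whereas for Kit all engrafted arrays stay near the KitWsh arrays.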

How the data were processed

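Whole-lung RNA of 36 arrays in 10 groups was measured. Per the submitters' processing notes, the authors made the deposited log2 values with GCRMA, a method that corrects background by probe sequence, normalises arrays by quantiles and summarises probes. A version was not given in the sources used here. Such values compress differences near the floor, and the number of arrays limits their precision. Of 45101 probe sets, 34945 have 1 symbol in GEO's platform annotation, and the probe set with the highest mean stood for each of 18193 genes. Genes over a log2 value of 5 on at least 3 compared arrays were tested with limma 3.58.1 in R 4.3.3 (lmFit and eBayes, two-sided, Benjamini-Hochberg over all tested genes, called at an adjusted p under 0.05), and every p in the text comes from it. Where every array of the lower group was under 5, the fold is the higher mean against 5, written "at least".

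The named genes are the 12 highest and 12 lowest called differences (immunoglobulin, RIKEN and predicted genes passed over), Kit, Kitl, the mast cell list and called list members or, with none, those of smallest p. Other named genes were chosen after their values were seen. Members and gene lists were chosen with earlier results of these data known. The fit was tested on simulated data. Omissions of an array kept the tested genes. Alternatives are given in the closing section. Promoters are RefSeq's (GRCm38.p6), matched by symbol.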

Additional observations from a re-analysis of the deposited data

Results flagged for a closer look

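Among groups of 4 challenged arrays, 8 of 46 values checked had 1 array far from the others, with the gap to the nearest array over the group's range above 0.829, and chance gives about 1 in 20. In KitWsh OVA lungs the ratio was 0.932 for Camp and 0.837 for Saa3, both with array 3 lowest, 0.835 for Treml4, with array 1 lowest, and 0.882 for Xist, a gene of the X chromosome that read 12.5 to 13.0 in this group. In WT OVA lungs it was 0.912 for Kit, which restates the reason array 4 was left out and is no further evidence. It was 0.846 for Cfi, 0.892 for Atp10d and 0.987 for the Y-linked mean, each with array 4 apart from the other arrays. Cfi and Atp10d were called in a fit without array 4, which favours genes close together on the other WT arrays. The chance of 1 in 20 therefore does not hold for them. The Y-linked mean of that array was 7.28, in a study whose mice are labelled female. Such signal was also seen on MCifngR OVA arrays 2 and 3, at 7.71 and 7.30.

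The KitWsh minus WT difference itself differed between OVA and PBS lungs, by limma's interaction term, for 15 of the 24 genes with the highest and lowest called differences. Those genes were chosen on the OVA arrays that enter this term, which favours a call, and 4.98% of all genes were called. The difference under OVA minus that under PBS was 4.06 for Fabp1, 2.61 for Apol11b, 2.32 for Treml4, 2.07 for Adgre4, 1.71 for Cyp2e1 and 1.59 for Ifitm6 on the log2 scale. It was -5.36 for Saa3, -4.89 for Arg1, -4.12 for Orm1, -3.99 for Hmox1, -3.43 for Timp1, -3.26 for Fxyd4, -2.70 for Ccl11, -2.41 for Cfi and -2.0 for Tnc. Arg1, Orm1, Hmox1, Fxyd4, Ccl11 and Cfi were under 5 in all unchallenged lungs. Apol11b and Treml4 were under 5 on every WT OVA array. The values above for all of these genes are therefore fitted differences whose sizes cannot be read.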

How the results depend on the processing

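The 111 genes called between KitWsh OVA and WT OVA lungs kept their direction wherever an alternative tested them. The alternatives reuse the same arrays, so a kept direction is no further evidence. Of 1963 gene and setting combinations, 1089 were past the threshold and 874 not. The number of genes called was 6 with all 4 WT OVA arrays and 28 with the spread estimated from all 10 groups. It was 127 when KitWsh MCigeR PBS array 2, which correlated poorly with the others (median r of 0.543), was left out of that estimate. Array weights gave 615, of which 309 were higher and 306 lower. The number was 14 with no filter on low values, 57 with every probe set tested on its own and 318 at an adjusted p under 0.1. Leaving out 1 array gave 19 (without WT OVA array 2) to 168 (without KitWsh OVA array 3). Quantile normalisation, median centring, a filter at 6, averaging the probe sets of each gene, a trended prior and the beta-actin 3′ to 5′ difference as a covariate gave 133, 124, 112, 109, 142 and 97, the last with 64 of the 111. The calls between KitWsh PBS and WT PBS lungs numbered 1054 with the spread from 10 groups without that array, and omissions gave 611 to 3660. The test of the difference between OVA and PBS lungs gave 207 with all 4 WT OVA arrays, and omissions gave 160 to 1072. The cause of these moves was not tested, and every omission also left fewer arrays to fit. No paired analysis was possible because the numbers in the titles do not tie arrays of different groups to a shared animal or day. Genes under 5 on every array of 1 group have no measured size, so their folds are bounds. Levels in engrafted lungs without arrays that stood apart were added after seeing the data.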
